A study of Arabidopsis thaliana with 20 samples.

Results

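The 10 genes described here encode the committed enzymes of jasmonate biosynthesis in Arabidopsis thaliana, chosen by locus identifier in the count table. They comprise 3 lipoxygenases (LOX2, LOX3 and LOX4), allene oxide synthase (AOS), 4 allene oxide cyclases (AOC1 to AOC4), 12-oxo-phytodienoate reductase (OPR3) and the jasmonate-amino acid synthetase JAR1, which together cover 5 enzyme steps. They are 10 of 37336 counted genes, and all 10 were among the 16288 genes with an average of at least 1 RPKM (reads per kilobase of exon, scaled to library size) that were tested.

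Jasmonates are lipid hormones that wounding, touch and chewing insects induce in leaves. In the plastid, 13-lipoxygenases oxygenate linolenic acid, AOS turns the hydroperoxide into an unstable allene oxide, and the cyclases fold it into 12-oxo-phytodienoic acid (OPDA). OPR3 reduces OPDA in the peroxisome, β-oxidation shortens the side chain to jasmonic acid, and JAR1 joins it to isoleucine to give the form that the receptor COI1 binds. Most of these genes are themselves induced by the hormone.

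Leaves of wild-type Col-0 plants, 6 weeks old and in vegetative growth, were sampled in 4 groups of 5 biological replicates, each sample made of 4 leaves taken from different plants. PEI-SWNTs were single-walled carbon nanotubes coated with polyethylenimine and loaded with plasmid DNA, SWNTs were nanotubes loaded with single-stranded RNA, water was infiltrated without nanotubes, and the last group was not infiltrated. Nanotubes were infiltrated with a needleless syringe at 50 mg per litre and leaves were collected 2 days later. Both cargoes referred to GFP, which Col-0 does not carry, and since each nanotube type had its own cargo, coating and cargo cannot be told apart.

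The libraries held between 13387714 and 29737496 counts, with 13387714 to 21943422 in PEI-SWNTs, 15248137 to 24471418 in SWNTs, 18191528 to 27143499 in water and 23138648 to 29737496 in non-infiltrated leaves. Genes of leaf mesophyll summed to 37952 to 48187 CPM (counts per 1000000 counts of the scaled library) in PEI-SWNTs, 39096 to 45574 in SWNTs, 43609 to 55990 in water and 37703 to 49282 CPM in non-infiltrated leaves, and 3 of 4 root markers were at 0 in all libraries. The mesophyll sum was carried by LHCB1.3, with a mean of 28543 CPM in PEI-SWNTs and 33186 CPM in non-infiltrated leaves. In PEI-SWNTs against non-infiltrated leaves RCA rose (log2 0.69) and CA1 fell (log2 -1.07), with log2 values of 0.15 for RBCS1A and -0.22 for LHCB1.3. The summed epidermis markers were 457 to 504 CPM in PEI-SWNTs, 620 to 714 in SWNTs, 640 to 698 in water and 623 to 733 CPM in non-infiltrated leaves, and the summed guard cell markers 35.5 to 39.3, 43.4 to 49.5, 41.8 to 51.1 and 62.6 to 78.6 CPM in the same order of groups. The epidermis sum was carried by FDH, which fell in PEI-SWNTs against non-infiltrated leaves (log2 -0.37). ML1 fell in PEI-SWNTs (log2 -0.76) and SWNTs (log2 -0.45). PDF1 was lower in all 3 infiltrated groups (log2 -2.99 in PEI-SWNTs, -3.09 in SWNTs and -4.49 in water). PDF1 averaged 7.45 RPKM in non-infiltrated leaves and 0.895, 0.862 and 0.338 RPKM in PEI-SWNTs, SWNTs and water. It was thus tested only through the group where it is high, and its values are a description only. Phloem companion cell markers summed to 180 to 201 CPM in PEI-SWNTs and 160 to 236 CPM in non-infiltrated leaves. SUC2 and APL did not pass the test between these groups, and the remaining gene of that list fell (log2 -0.72). Flower markers, all too low to be tested, summed to 1.56 to 5.35 CPM and 0.373 to 0.848 CPM in the same groups. In PEI-SWNTs that sum was carried by PI, with a mean of 2.55 CPM. The part of these cell types in the results below was not tested, and in whole leaves fewer cells of a type cannot be told apart from less RNA per cell.

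Certain samples stood apart in these genes. Non-infiltrated replicate 2 held the highest level of its group for all 10 members, and PEI-SWNTs replicate 5 the highest of its group for 8 of 10. Water replicate 4 was the highest of its group for 3 members, which were LOX3, LOX4 and AOC3. Where leaving out 1 of these samples changed the call of a member, the value without it is given beside the result, and leaving out non-infiltrated replicate 2 and PEI-SWNTs replicate 5 together was an alternative chosen after seeing the data.

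Compared per length, the members spanned a wide range in non-infiltrated leaves. LOX2, the main leaf 13-lipoxygenase, averaged 492 RPKM and AOS 250.1, followed by AOC2 with 96.5, AOC1 with 56.5, OPR3 with 52.5, JAR1 with 42.5 and AOC4 with 38.8 RPKM. LOX3, LOX4 and AOC3 were the 3 lowest, with 13.5, 7.64 and 4.58 RPKM. All neighbours in this order overlapped in their ranges across samples except AOC4 (32.4 to 50.5 RPKM) and LOX3 (6.59 to 29.2 RPKM). LOX2 and AOS had the 2 highest means and AOC3 the lowest in each of the 4 groups, and the order of the members between them differed between groups. OPR3, for example, averaged 44.2 RPKM in PEI-SWNTs, 81.9 in SWNTs, 27.6 in water and 52.5 RPKM in non-infiltrated leaves.

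**Figure D1:**
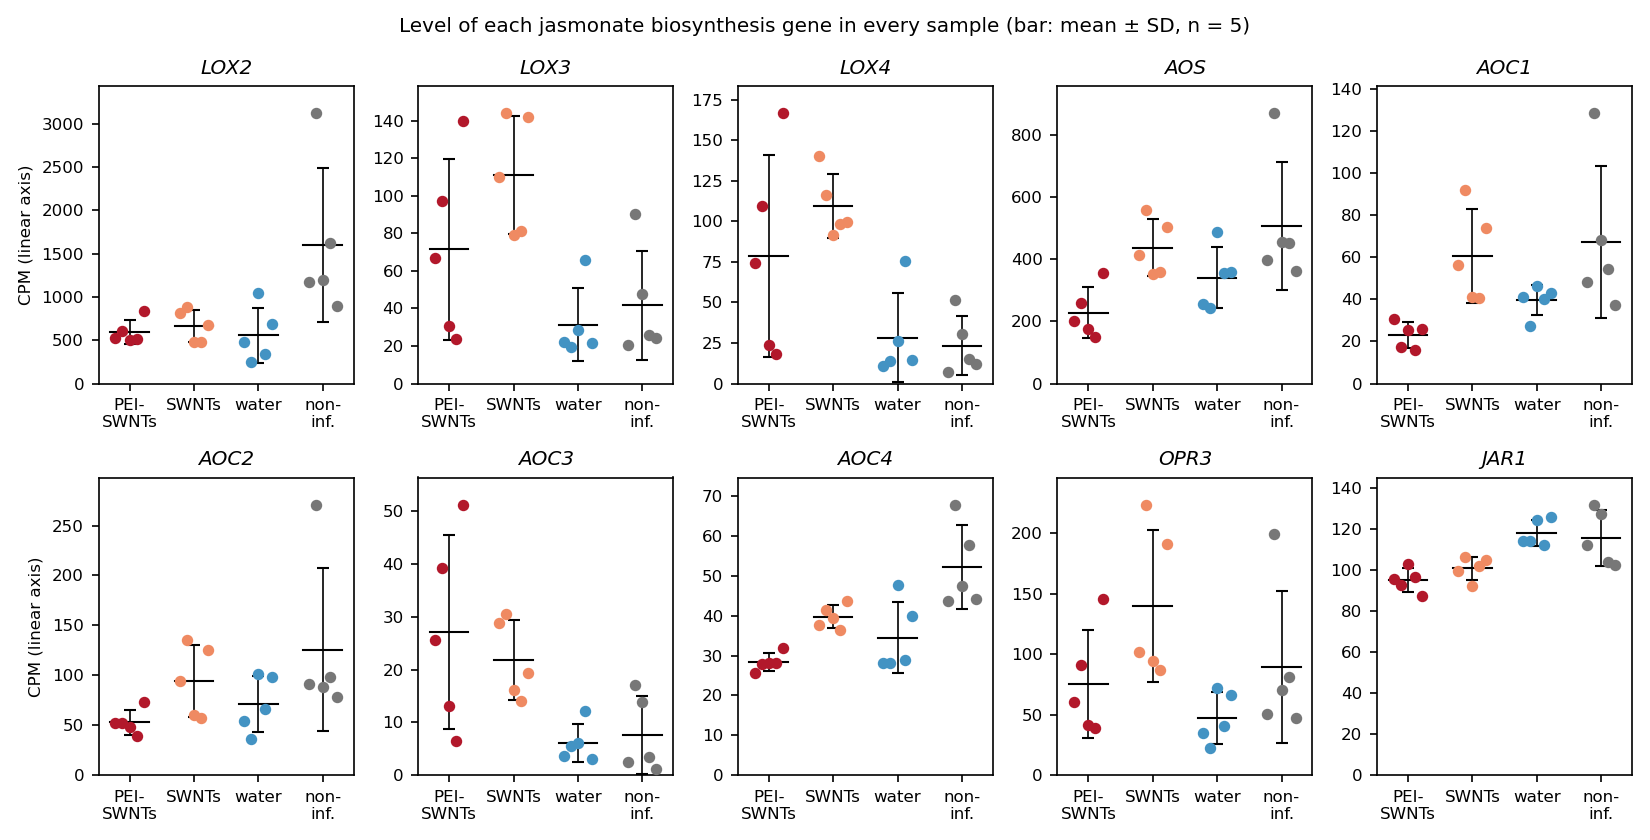
Level of each member in every sample, in CPM on a linear axis starting at 0 (points: replicates 1 to 5 from left to right; bars: mean ± SD, n = 5 per group). LOX2 lay at 502 to 835 CPM in PEI-SWNTs and at 898 to 3125 CPM in non-infiltrated leaves, whereas LOX4 lay at 91.4 to 140.6 CPM in SWNTs and at 6.97 to 51.7 CPM in non-infiltrated leaves.

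All 10 members changed across the 4 groups in the joint test of the 3 infiltrated groups against non-infiltrated leaves, with adjusted p between 1.7e-04 for AOC4 and 0.0272 for OPR3 (edgeR quasi-likelihood F-test, Benjamini-Hochberg over the 16288 genes). Across all tested genes this share was 72.3%. The comparisons by pair that follow used the same fit, and a gene is said to have risen or fallen where its adjusted p was under 0.05. The 3 comparisons with non-infiltrated leaves share their control samples, as do both comparisons with water.

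In PEI-SWNT leaves against non-infiltrated leaves, 2 of 10 members rose and 6 fell. Of all tested genes 30.4% rose and 31.2% fell. The median log2 fold change of the members was -0.58, against -0.02 over all genes. LOX2, AOS, AOC1, AOC2, AOC4 and JAR1 fell, LOX4 and AOC3 rose, and LOX3 and OPR3 did not pass the test. With a change of at least 2-fold also required, 2 rose and 4 fell, against 14.8% of all genes in either direction.

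In SWNT leaves against non-infiltrated leaves, 2 members rose and 3 fell, beside a background of 21.6% higher and 20.3% lower. LOX3 and LOX4 rose, and LOX2, AOC4 and JAR1 fell. The median was -0.17 for the members and -0.01 for all genes. At 2-fold or more, 2 rose and 1 fell, against 6.91% of all genes in either direction.

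Infiltration of water alone was followed by a fall of 2 of 10 members against non-infiltrated leaves, LOX2 and AOC4, and by no rise (edgeR; 0 members higher also at an unadjusted p under 0.05 and with DESeq2). Of all tested genes 16.4% rose and 16.4% fell. The members' median was -0.58 and that of all genes 0.00, and LOX2 was the 1 member past 2-fold, against 4.51% of all genes in either direction.

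Against water, PEI-SWNT leaves had 2 members higher, LOX3 and AOC3, and 2 lower, AOC1 and JAR1, beside 27.7% and 24.3% of all genes. Of the 10 members 2 changed by more than 2-fold, both of them risers, against 9.61% of all genes in either direction. SWNT leaves had 3 members higher than water, LOX3, LOX4 and OPR3, and 1 lower, JAR1. Here the background was 7.52% higher and 6.14% lower. Of the 10 members 3 passed 2-fold, all of them risers, against 1.52% of all genes in either direction. Between the nanotubes, no member was higher in PEI-SWNTs than in SWNTs (edgeR; 0 also at an unadjusted p under 0.05 and with DESeq2) and 3 were lower, AOS, AOC1 and AOC4, beside 22.3% higher and 19.0% lower among all genes. Only AOC1 of these 3 changed by at least 2-fold, against 6.39% of all genes in either direction.

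**Figure D2:**
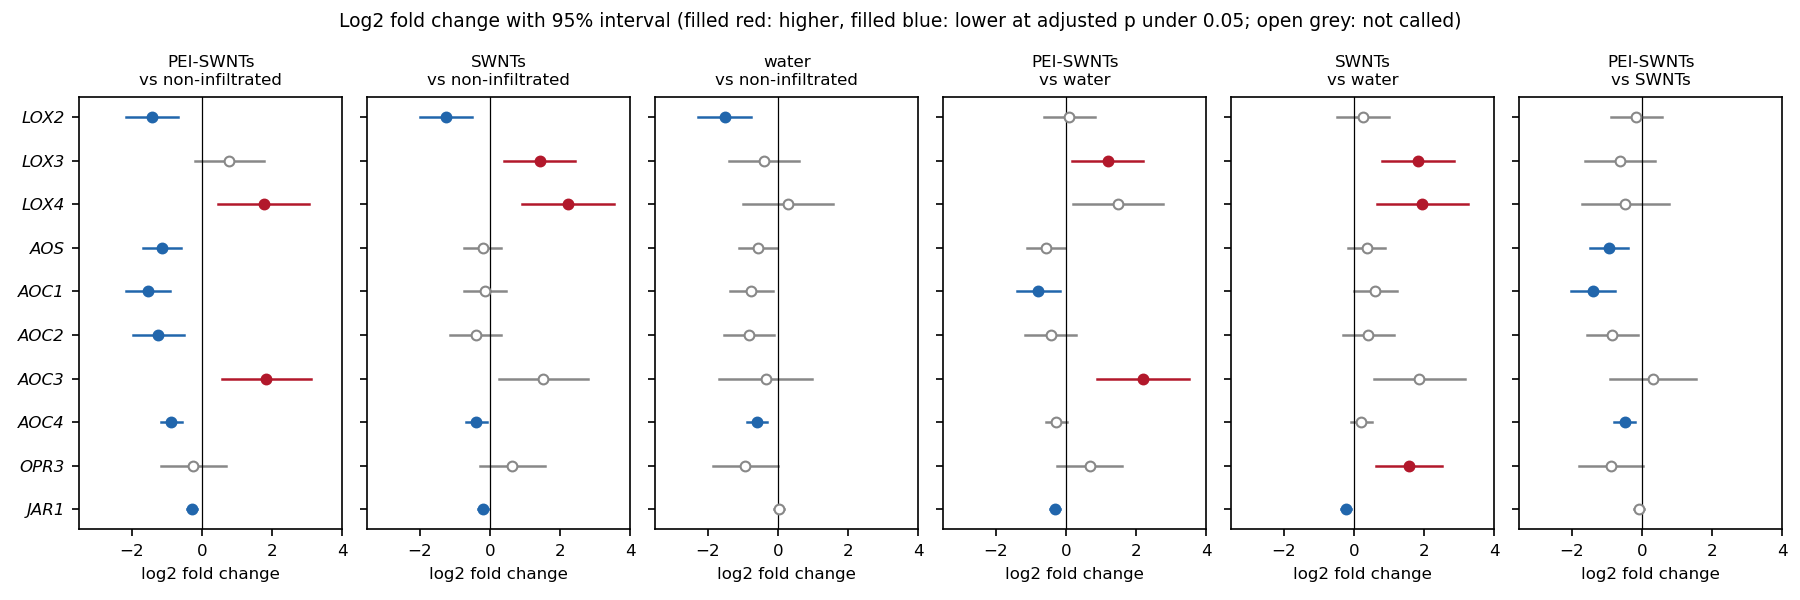
Log2 fold change of each member with its 95% interval in the 6 comparisons (first-named group over second; filled red, higher and filled blue, lower at adjusted p under 0.05; open grey, not called; 5 samples per group). LOX2 lies left of 0 in the 3 comparisons with non-infiltrated leaves, at -1.42, -1.26 and -1.52, and near 0 in the other 3.

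LOX2 (AT3G45140, chromosome 3, positions 16525245 to 16529352, plus strand, build TAIR10.1) supplies much of the jasmonate made on wounding of leaves. It measured 529, 602, 502, 519.9 and 835 CPM in PEI-SWNTs, 817, 887, 481, 482 and 673 in SWNTs and 475, 246, 1042, 344 and 683 CPM in water, against 1169.7, 3125, 1192, 1621 and 898 CPM in non-infiltrated leaves. All PEI-SWNT and SWNT samples were below the lowest non-infiltrated one, and 1 water sample, replicate 3, was above it. LOX2 fell by 1.42 (SE 0.36, adjusted p = 0.00186, edgeR), 1.26 (SE 0.35, adjusted p = 0.00770) and 1.52 (SE 0.36, adjusted p = 0.00325) on the log2 scale in PEI-SWNTs, SWNTs and water. Without non-infiltrated replicate 2 the log2 fold changes were -1.03, -0.87 and -1.13, and the 3 calls held. The infiltrated groups were not told apart from each other in LOX2, with log2 differences of 0.10 for PEI-SWNTs over water (95% interval -0.63 to 0.83), 0.26 for SWNTs over water (-0.47 to 0.99) and -0.16 for PEI-SWNTs over SWNTs (-0.89 to 0.57).

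LOX3 (AT1G17420, chromosome 1, 5977323 to 5981521, plus strand) and LOX4 (AT1G72520, chromosome 1, 27308513 to 27312756, plus strand) are also 13-lipoxygenases of the plastid. Their coding sequences were identical at 81.0% of aligned bases, against 60.6% between LOX2 and LOX3. LOX3 measured 66.9, 97.3, 30.8, 23.5 and 139.6 CPM in PEI-SWNTs, 109.8, 144, 79.0, 81.1 and 142 CPM in SWNTs, 21.9, 19.2, 28.4, 65.8 and 21.7 CPM in water and 20.3, 90.2, 47.9, 25.8 and 24.1 CPM in non-infiltrated leaves. Every SWNT sample exceeded every water sample, while PEI-SWNT replicates 3 and 4 lay among the control values. LOX3 was 2.67-fold higher in SWNTs than in non-infiltrated leaves (log2 1.42, SE 0.48, adjusted p = 0.0234, edgeR) and 3.54-fold higher than in water (log2 1.83, SE 0.49, adjusted p = 0.0170). The first of these calls was lost in 4 of 20 fits with 1 sample left out (non-infiltrated replicate 1, 4 or 5, or SWNTs replicate 2), and the second in none. In PEI-SWNTs it was 2.29-fold higher than in water (adjusted p = 0.0448), a call that was lost in 12 of 20 fits with 1 sample left out, among them that without PEI-SWNTs replicate 5 (log2 0.77). Its log2 value against non-infiltrated leaves was 0.78 (adjusted p = 0.161), which became 1.28 and passed without non-infiltrated replicate 2 (adjusted p = 0.0253, edgeR).

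LOX4 had 74.3, 109.7, 23.5, 18 and 167 CPM in PEI-SWNTs, 140.6, 116, 91.4, 98.2 and 99.7 CPM in SWNTs, 11.1, 13.7, 26.4, 75.8 and 14.8 CPM in water and 6.97, 51.7, 30.7, 15.3 and 11.8 CPM in non-infiltrated leaves. The 5 SWNT samples lay above all 10 control samples, and replicate 4 was far above the rest of the water group. LOX4 was 4.69-fold higher in SWNTs than in non-infiltrated leaves (log2 2.23, SE 0.63, adjusted p = 0.00791, edgeR) and 3.86-fold higher than in water (log2 1.95, SE 0.62, adjusted p = 0.0428). The second call was lost in 11 of 20 fits with 1 sample left out, over which the log2 value ranged between 1.74 and 2.74. In PEI-SWNTs LOX4 was 3.38-fold higher than in non-infiltrated leaves (log2 1.76, SE 0.62, adjusted p = 0.0194). That call was lost without PEI-SWNTs replicate 5 (log2 1.26) and without non-infiltrated replicate 1, and the difference from water, 1.48, did not pass (adjusted p = 0.0517). That difference passed in 5 of 20 fits with 1 sample left out, including those without water replicate 4 (log2 2.26, adjusted p = 0.00491) and without non-infiltrated replicate 2 (log2 1.48, adjusted p = 0.0415).

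The lipoxygenase transcripts thus differed in make-up between groups. Of the RPKM summed over the 3 genes, LOX2 made up 81.0% ± 9.38 in PEI-SWNTs, 73.7% ± 2.02 in SWNTs, 87.9% ± 10.7 in water and 96.0% ± 1.67 in non-infiltrated leaves (SD, n = 5 each). Its share was 71.7 to 76.3% in SWNTs and 93.5 to 97.6% in non-infiltrated leaves, ranges that did not meet. In PEI-SWNTs it spread between 72.0 and 92.2%, and in water it was 69.6% in the lowest sample and up to 94.7% in the highest.

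AOS (AT5G42650, chromosome 5, 17097564 to 17099595, minus strand) is encoded by a single gene in Arabidopsis. It measured 202, 261, 175, 150.2 and 355 CPM in PEI-SWNTs, 413, 561, 352, 361 and 504 CPM in SWNTs, 257, 244, 488, 358 and 361 CPM in water and 399.5, 872, 456, 452 and 362 CPM in non-infiltrated leaves. The PEI-SWNT values were all below the non-infiltrated ones, and 4 of 5 were below the lowest SWNT value. AOS fell by 1.15 on the log2 scale in PEI-SWNTs against non-infiltrated leaves (SE 0.26, adjusted p = 7.7e-04, edgeR) and by 0.94 against SWNTs (SE 0.26, adjusted p = 0.00695). Against water the log2 difference of PEI-SWNTs was -0.58 (adjusted p = 0.0673), which passed in 4 of 20 fits with 1 sample left out, including those without PEI-SWNTs replicate 5 (log2 -0.82) and without non-infiltrated replicate 2 (log2 -0.58). The log2 difference of SWNTs from non-infiltrated leaves was -0.21 (95% interval -0.75 to 0.32).

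AOC1 (AT3G25760), AOC2 (AT3G25770) and AOC3 (AT3G25780) lie head to tail on the plus strand of chromosome 3 within 7312 bases, at 9403779 to 9405338, 9406669 to 9408071 and 9409160 to 9411090, while AOC4 (AT1G13280) is at 4547388 to 4548894 on chromosome 1. The coding sequences of AOC1 and AOC2 were identical at 90.3% of aligned bases, those of AOC1 and AOC3 at 83.2% and those of AOC1 and AOC4 at 74.7%. The stretch below, from the RefSeq TAIR10.1 genome, is shown because it is the longest coding run shared by 2 members, 73 bases that are the same in AOC1 and AOC3 (chr3:9404669-9404741, chr3:9407403-9407475, chr3:9409973-9410045 and chr1:4548116-4548188, plus strand). Capitals mark bases that differ from AOC1, 3 in AOC2 and 9 in AOC4.
AOC1: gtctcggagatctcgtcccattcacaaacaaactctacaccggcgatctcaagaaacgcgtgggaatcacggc
AOC2: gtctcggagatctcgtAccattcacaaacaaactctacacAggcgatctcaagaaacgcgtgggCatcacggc
AOC3: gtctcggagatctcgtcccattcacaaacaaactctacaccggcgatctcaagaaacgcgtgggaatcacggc
AOC4: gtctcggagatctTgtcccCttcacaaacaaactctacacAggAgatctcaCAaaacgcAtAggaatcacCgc
No 100-base window of the exons of any member occurred in another gene, so that the reads of 150 bases could tell the cyclases apart, although how reads with several matches were counted is not given in the sources used here.

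AOC1 measured 30.5, 17.4, 25.3, 15.7 and 26.1 CPM in PEI-SWNTs, 56.2, 91.8, 40.9, 40.4 and 73.6 CPM in SWNTs, 41.3, 27.4, 46.4, 40.1 and 43.2 CPM in water and 48.0, 128, 68.1, 54.3 and 37.3 CPM in non-infiltrated leaves. All PEI-SWNT samples were below all SWNT and all non-infiltrated samples. AOC1 had the largest fall of the members in PEI-SWNTs against non-infiltrated leaves, 2.92-fold (log2 -1.55, SE 0.30, adjusted p = 1.9e-04, edgeR), and was 2.64-fold lower than in SWNTs (log2 -1.40, SE 0.30, adjusted p = 0.00100). It was also lower than in water (log2 -0.79, SE 0.30, adjusted p = 0.0333), a call lost in 6 of 20 fits with 1 sample left out, including that without water replicate 4 (log2 -0.78). In SWNTs its log2 difference from non-infiltrated leaves was -0.15 (95% interval -0.75 to 0.46).

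AOC2, the most abundant cyclase, had 51.8, 51.7, 48.4, 38.7 and 72.9 CPM in PEI-SWNTs, 93.9, 135, 60.4, 57.3 and 125 CPM in SWNTs, 53.9, 36.2, 100.8, 65.9 and 97.9 CPM in water and 91.4, 271, 88.6, 97.9 and 78.3 CPM in non-infiltrated leaves. The PEI-SWNT samples were below all non-infiltrated ones and overlapped with SWNTs through replicate 5. AOC2 fell 2.38-fold in PEI-SWNTs against non-infiltrated leaves (log2 -1.25, SE 0.35, adjusted p = 0.00456, edgeR), or by 0.76 on the log2 scale without non-infiltrated replicate 2, where the call held. Against SWNTs the log2 difference was -0.84 (adjusted p = 0.0611). It passed in 5 of 20 fits with 1 sample left out, including those without PEI-SWNTs replicate 5 (log2 -1.01, adjusted p = 0.0376) and without non-infiltrated replicate 2 (log2 -0.84), and also with only the 10 samples compared (adjusted p = 0.0146).

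AOC3 moved the other way. It measured 25.7, 39.2, 13, 6.43 and 51.3 CPM in PEI-SWNTs, 28.9, 30.6, 16.2, 14.0 and 19.4 CPM in SWNTs, 3.57, 5.42, 6.05, 12.1 and 3.06 CPM in water and 2.41, 17.0, 13.9, 3.47 and 1.15 CPM in non-infiltrated leaves. All SWNT samples were above all water samples, and the PEI-SWNT samples had the largest SD of the 4 groups in CPM, 18.5, while non-infiltrated leaves had the largest ratio of highest to lowest sample, 14.8. AOC3 rose 3.59-fold in PEI-SWNTs against non-infiltrated leaves (log2 1.84, SE 0.61, adjusted p = 0.0133, edgeR) and 4.57-fold against water (log2 2.19, SE 0.63, adjusted p = 0.00664). The first call was lost without PEI-SWNTs replicate 5 (log2 1.45) and the second held in all 20 fits with 1 sample left out. In SWNTs the log2 values were 1.52 against non-infiltrated leaves (adjusted p = 0.0506) and 1.87 against water (adjusted p = 0.0529), and both passed without any 1 of non-infiltrated replicate 2 (log2 2.06 and 1.87), water replicate 4 (1.52 and 2.30) or PEI-SWNTs replicate 5 (1.52 and 1.86).

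AOC4, the cyclase outside the cluster, had 25.5, 27.9, 28.2, 28.1 and 31.9 CPM in PEI-SWNTs, 37.7, 41.5, 39.5, 36.4 and 43.6 CPM in SWNTs, 28.1, 28.1, 47.6, 28.8 and 39.8 CPM in water and 43.6, 67.9, 47.5, 57.8 and 44.1 CPM in non-infiltrated leaves. The PEI-SWNT samples were below every SWNT and every non-infiltrated sample. AOC4 fell in all 3 infiltrated groups against non-infiltrated leaves, by 0.88 on the log2 scale in PEI-SWNTs (SE 0.14, adjusted p = 2.9e-05, edgeR), 0.39 in SWNTs (SE 0.14, adjusted p = 0.0325) and 0.60 in water (SE 0.14, adjusted p = 0.00360). The SWNT call was lost in 5 of 20 fits with 1 sample left out, including that without non-infiltrated replicate 2 (log2 -0.28). PEI-SWNTs were also lower than SWNTs (log2 -0.49, SE 0.14, adjusted p = 0.0105).

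Per length, AOC3 made up 15.5% ± 8.22 of the summed cyclase RPKM in PEI-SWNTs, 7.98% ± 1.72 in SWNTs, 3.31% ± 2.07 in water and 2.1% ± 1.80 in non-infiltrated leaves (SD, n = 5 each). The sum over the 4 cyclases averaged 97.3 RPKM in PEI-SWNTs, 166 in SWNTs, 117 in water and 196 RPKM in non-infiltrated leaves. With the counts of the 3 tandem genes added before the fit, the log2 difference of PEI-SWNTs was -0.96 from non-infiltrated leaves (adjusted p = 0.0170, edgeR) and -0.18 from water (adjusted p = 0.671).

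**Figure D3:**
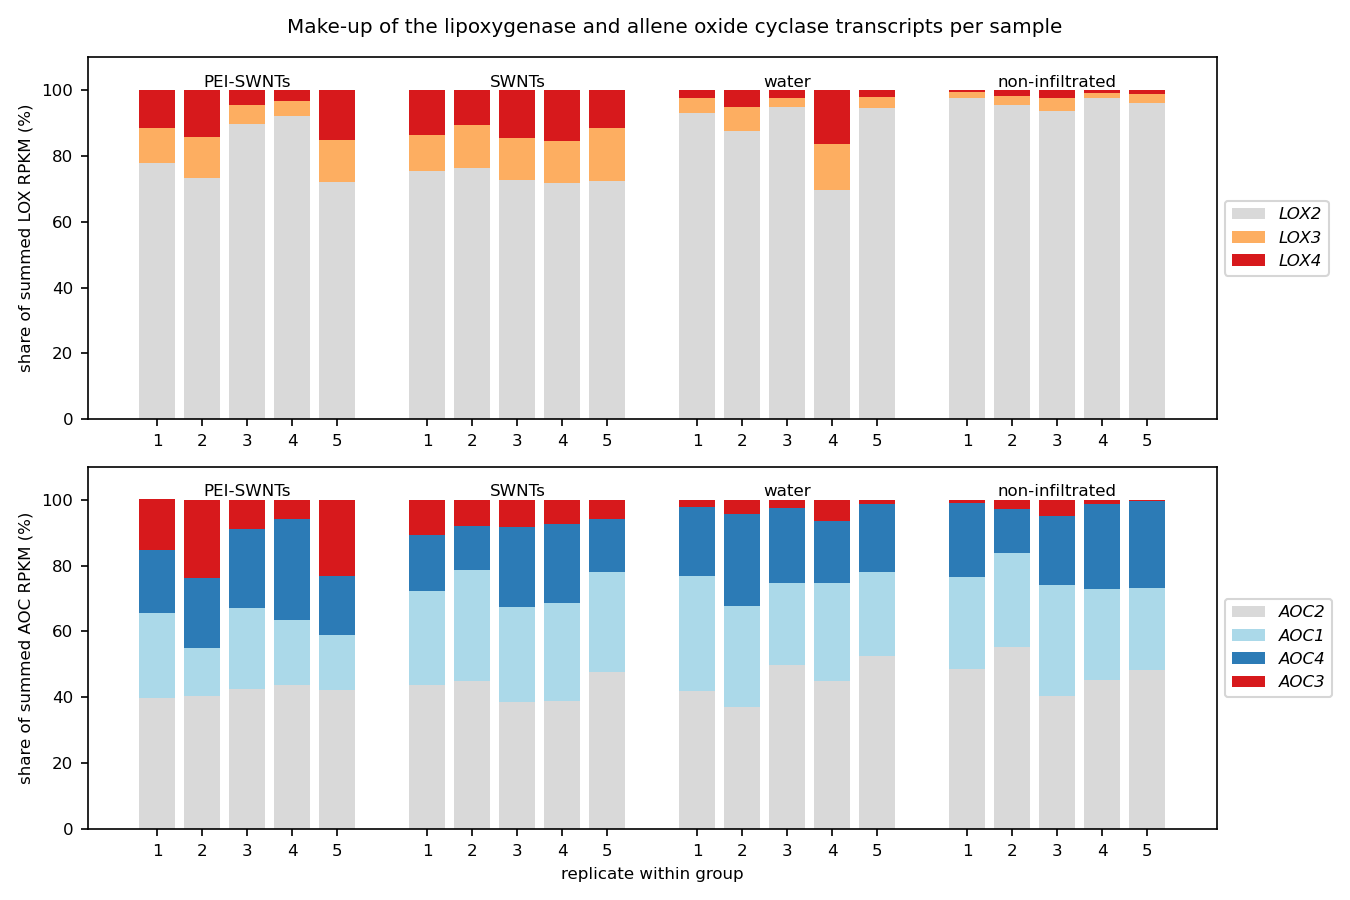
Make-up of the lipoxygenase (top) and allene oxide cyclase (bottom) transcripts in each sample, as percent of summed RPKM per family (bars: replicates 1 to 5 within each group). LOX2 takes 71.7 to 76.3% of the lipoxygenase sum in SWNTs and 93.5 to 97.6% in non-infiltrated leaves, and AOC3 takes up to 23.9% of the cyclase sum in PEI-SWNTs and up to 4.97% in non-infiltrated leaves.

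OPR3 (AT2G06050, chromosome 2, 2359114 to 2362375, minus strand) is the reductase isoform that acts on the natural OPDA isomer. It measured 60.3, 91.1, 41.1, 38.7 and 146 CPM in PEI-SWNTs, 101.9, 224, 94.6, 87.0 and 191 CPM in SWNTs, 34.4, 22.1, 71.9, 40.6 and 66.5 CPM in water and 50.3, 199.0, 70.1, 81.2 and 47.4 CPM in non-infiltrated leaves. Every SWNT sample was above every water sample. OPR3 was 2.97-fold higher in SWNTs than in water (log2 1.57, SE 0.45, adjusted p = 0.0251, edgeR), a call lost in 5 of 20 fits with 1 sample left out, including that without water replicate 4 (log2 1.52), within a log2 range of 1.32 to 1.76. Against non-infiltrated leaves its log2 value was 0.64 in SWNTs (adjusted p = 0.254), which became 1.17 and passed without non-infiltrated replicate 2, and -0.25 in PEI-SWNTs (95% interval -1.17 to 0.67). The difference of PEI-SWNTs from SWNTs was -0.89 (adjusted p = 0.117), which became -1.29 and passed without PEI-SWNTs replicate 5 (adjusted p = 0.0264, edgeR).

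JAR1 (AT2G46370, chromosome 2, 19033586 to 19036683, plus strand) had the smallest changes among those called in the nanotube groups. It measured 95.7, 92.8, 103, 96.9 and 87.6 CPM in PEI-SWNTs, 99.5, 106.5, 92.2, 102 and 105.0 CPM in SWNTs, 114, 114.5, 125, 112 and 126 CPM in water and 112, 132, 128, 104 and 103 CPM in non-infiltrated leaves. Both nanotube groups lay wholly below water. JAR1 was 1.24-fold lower in PEI-SWNTs than in water (log2 -0.31, SE 0.07, adjusted p = 1.0e-03, edgeR) and 1.21-fold lower than in non-infiltrated leaves (log2 -0.28, SE 0.07, adjusted p = 0.00184). In SWNTs it was 1.17-fold lower than in water (adjusted p = 0.0364) and 1.14-fold lower than in non-infiltrated leaves (adjusted p = 0.0311), and each of these calls was lost in 4 of 20 fits with 1 sample left out, the call against non-infiltrated leaves also without non-infiltrated replicate 2 (log2 -0.14).

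As a measure of likeness across the 20 samples, the root mean square difference between the centred log2 CPM of 2 genes was used, which is a description of samples that share libraries and groups. LOX4 was the nearest member to LOX3, at 0.513, and to AOC3, at 0.591, whereas AOC3 and LOX2 differed by 1.67. In PEI-SWNTs, replicates 1, 2 and 5 held the 3 highest values and replicates 3 and 4 the 2 lowest in each of LOX2, LOX3, LOX4, AOS, AOC2, AOC3 and OPR3. No tested gene was nearer to LOX4 than LOX3 was. AOS and AOC2 were the closest pair of members at 0.266, and AOC1 and AOC4 were each nearest to AOS among the members, although 1510 genes of the table were nearer to AOC4 than AOS was. The 5 genes nearest to LOX2 in the whole table were AT1G52000 (0.264), the β-glucosidase gene BGLU5 (0.272), the jacalin-related lectin gene JAL34 (0.275), AT1G62660 (0.290) and the dehydroascorbate reductase gene DHAR1 (0.307).

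The 250 bases before the annotated gene start were searched on both strands for the G-box CACGTG, the core element bound by MYC-type factors of jasmonate signalling, and for its variant AACGTG. Of the 10 members 3 held 1 of these hexamers, against 13.3% of the 27443 such windows in the genome (6.49% with the G-box and 7.54% with the variant, where windows that hold both count in each). The 3 windows are shown from RefSeq TAIR10.1, 5′ to 3′ toward the gene, with the hexamer in capitals, and that of AOC3 beside them because AOC3 and LOX4 rose while AOC1 and AOS fell. They are chr1:27308263-27308512 (plus strand) for LOX4, chr5:17099596-17099845 (minus strand) for AOS, chr3:9403529-9403778 (plus strand) for AOC1 and chr3:9408910-9409159 (plus strand) for AOC3.
LOX4: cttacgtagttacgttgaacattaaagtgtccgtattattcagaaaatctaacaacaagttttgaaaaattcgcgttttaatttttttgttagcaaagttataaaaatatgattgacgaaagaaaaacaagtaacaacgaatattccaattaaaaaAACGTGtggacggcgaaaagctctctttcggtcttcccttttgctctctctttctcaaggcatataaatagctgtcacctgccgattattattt
AOS: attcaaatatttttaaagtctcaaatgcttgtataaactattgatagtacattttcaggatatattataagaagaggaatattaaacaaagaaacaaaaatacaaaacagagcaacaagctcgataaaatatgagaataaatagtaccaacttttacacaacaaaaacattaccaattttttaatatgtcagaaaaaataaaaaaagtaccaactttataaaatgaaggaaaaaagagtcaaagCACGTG
AOC1: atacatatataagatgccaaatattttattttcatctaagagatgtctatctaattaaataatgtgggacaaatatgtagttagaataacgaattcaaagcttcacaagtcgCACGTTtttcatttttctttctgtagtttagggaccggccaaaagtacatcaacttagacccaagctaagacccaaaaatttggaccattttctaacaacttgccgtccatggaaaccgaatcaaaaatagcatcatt
AOC3: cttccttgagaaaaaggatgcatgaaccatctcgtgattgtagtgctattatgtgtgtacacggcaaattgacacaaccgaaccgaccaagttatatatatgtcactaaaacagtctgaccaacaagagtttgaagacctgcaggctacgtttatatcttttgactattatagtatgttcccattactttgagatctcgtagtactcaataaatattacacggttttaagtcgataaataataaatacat
The hexamer began 94 bases before the gene start in LOX4, 138 in AOC1, where it is read from the other strand, and 6 in AOS. A member that rose (LOX4) and members that fell (AOS and AOC1) in PEI-SWNTs thus carried one, and a match is a description of letters and not a binding site.

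The other genes of the pathway were taken as 5 lists. The first held enzymes that act before the lipoxygenase step, the remaining lipoxygenases and HPL1, which is neither. Of these 9 genes 7 were tested. In PEI-SWNTs against non-infiltrated leaves 1 rose and 5 fell, beside 30.4% and 31.2% of all genes (median log2 -0.78, against -0.02 over all genes). The riser was LOX6, a further 13-lipoxygenase, at 80.7 CPM in PEI-SWNTs and 59.1 CPM in non-infiltrated leaves (log2 0.45, adjusted p = 6.6e-07, edgeR). The largest fall was that of HPL1, a hydroperoxide lyase gene whose Col-0 allele is known to give no functional enzyme, at 4.16 CPM and 28.5 CPM in the same groups (log2 -2.75, adjusted p = 2.9e-07). HPL1 was also lower in PEI-SWNTs than in SWNTs (log2 -1.20) and in water than in non-infiltrated leaves (log2 -1.45).

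Of the transport and peroxisomal genes 10 of 11 were tested. In PEI-SWNTs against non-infiltrated leaves 5 rose and 2 fell, in SWNTs 5 rose and 2 fell, and in water 1 rose and 3 fell, beside backgrounds of 30.4% and 31.2%, 21.6% and 20.3%, and 16.4% and 16.4%, with medians of 0.24, 0.17 and -0.02 against -0.02, -0.01 and 0.00 over all genes. KAT2, the main thiolase of β-oxidation, averaged 235.5 CPM in PEI-SWNTs and 123 CPM in non-infiltrated leaves (log2 0.94, adjusted p = 1.6e-07, edgeR), and was also higher than in SWNTs (log2 0.60). KAT5, another thiolase, fell by 1.19 on the log2 scale. OPR1, a reductase outside the main route, rose in water against non-infiltrated leaves (log2 0.82) and was lower in PEI-SWNTs than in SWNTs (log2 -0.49), and ACX1, an acyl-CoA oxidase, fell by 0.30 in water against non-infiltrated leaves.

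Of the genes that convert or break down jasmonates 10 of 11 were tested, and 3 rose and 2 fell in PEI-SWNTs against non-infiltrated leaves, shares near or below the 30.4% and 31.2% of all genes (median log2 0.05, against -0.02). JOX4, which hydroxylates jasmonic acid and so inactivates it, averaged 17.5 CPM in PEI-SWNTs and 2.43 CPM in non-infiltrated leaves (log2 2.83, adjusted p = 7.9e-05, edgeR). It was also higher in PEI-SWNTs than in SWNTs (log2 1.19) and in water than in non-infiltrated leaves (log2 1.47). JMT, which methylates jasmonic acid, averaged 0.420 CPM in PEI-SWNTs (4 to 14 counts per library) and 4.41 CPM in non-infiltrated leaves (log2 -3.37). Per length JMT averaged 0.253 RPKM in PEI-SWNTs, 0.804 in SWNTs and 1.13 in water, against 2.65 RPKM in non-infiltrated leaves. Its average of at least 1 RPKM thus rested on the group from which it fell, and the fall is given as a description only.

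Of 17 signalling genes (COI1, the MYC factors and the JAZ repressors) 15 were tested. None rose (0 also at an unadjusted p under 0.05) and 2 fell in PEI-SWNTs against non-infiltrated leaves, MYC4 (log2 -1.14) and JAZ13 (log2 -2.56, adjusted p = 0.00467, edgeR), fewer than the 30.4% and 31.2% of all genes. The median was -0.28, against -0.02. In SWNTs against water 6 of the 15 rose and 1 fell, beside a background of 7.52% higher and 6.14% lower, so that the fall was near the background share. The 6 were all JAZ genes, as were all of the 15 tested genes other than COI1, MYC3 and MYC4. The median of the 15 genes was 0.84, against 0.01 over all genes. JAZ7 had the largest value, 8.85 CPM in SWNTs and 1.11 CPM in water (log2 3.0, adjusted p = 0.0159), and it is named after its values were seen, as are MYC4 and the kind of these 6 genes. JAZ13 was lower (log2 -3.10) and JAZ11 higher (log2 0.37) in PEI-SWNTs than in SWNTs, and JAZ12 fell by 0.32 in water against non-infiltrated leaves. JAZ13 was low, at 0.167 CPM in PEI-SWNTs (0 to 14 counts), 1.66 CPM in SWNTs and 1.15 CPM in non-infiltrated leaves. Per length it averaged 0.200 RPKM in PEI-SWNTs, 2.00 in SWNTs, 1.15 in water and 1.38 RPKM in non-infiltrated leaves. Its average of at least 1 RPKM thus rested on the SWNT group, and its difference from SWNTs is a description only. JAZ8 averaged 2.08 RPKM in SWNTs, against 1.28 in PEI-SWNTs, 0.411 in water and 0.954 RPKM in non-infiltrated leaves. It too was tested only through the SWNT group, so its difference from water and any part of it in the count of risers are a description only.

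Of 9 jasmonate output genes 5 were tested, and 4 fell in each of the 3 infiltrated groups against non-infiltrated leaves, VSP1, VSP2, CORI3 and CLH1, beside 31.2%, 20.3% and 16.4% of all genes in PEI-SWNTs, SWNTs and water. The median log2 fold change of the 5 was -4.14 in PEI-SWNTs, -1.88 in SWNTs and -1.80 in water, against -0.02, -0.01 and 0.00 over all genes. VSP2, a vegetative storage protein gene, averaged 10.7 CPM in PEI-SWNTs, 36.5 in SWNTs and 28.6 in water, against 306 CPM in non-infiltrated leaves. Its medians were 2.03, 16.8, 2.55 and 265.7 CPM in the same order. The highest sample reached 40.0 CPM in PEI-SWNTs and 118.9 CPM in water, the latter above the lowest non-infiltrated sample (97.8 CPM). CORI3, a coronatine-induced gene, was the 1 output gene that differed between the nanotubes, at 9.30 CPM in PEI-SWNTs and 84.7 CPM in SWNTs (log2 -3.18, SE 0.37, adjusted p = 1.8e-06, edgeR).

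**Figure D4:**
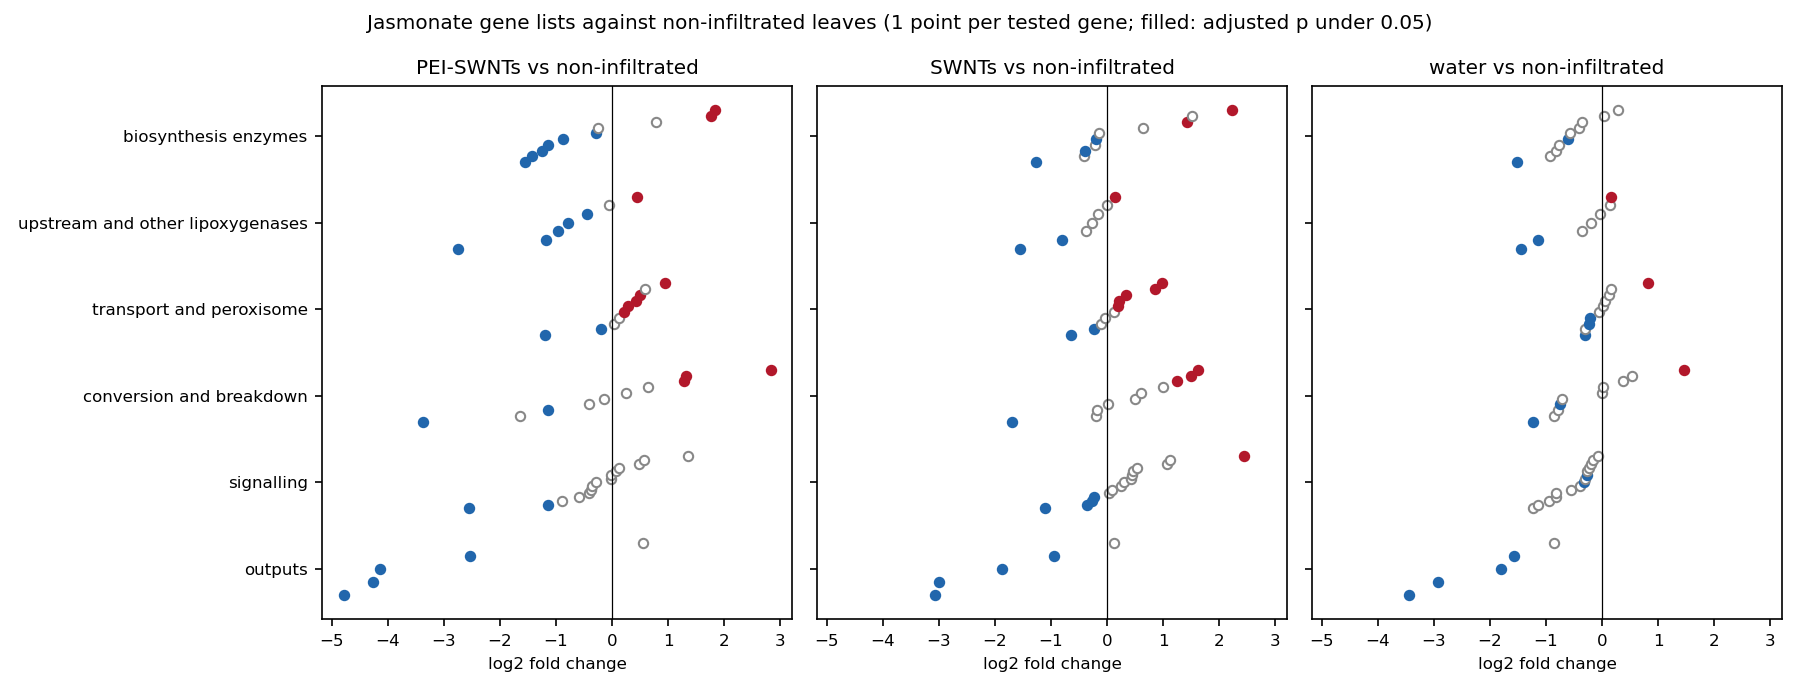
Log2 fold change of each tested gene of the biosynthesis enzymes and of 5 further jasmonate lists in PEI-SWNTs, SWNTs and water, each over non-infiltrated leaves (filled red, higher and filled blue, lower at adjusted p under 0.05; open, not called). In each panel 4 of the 5 tested output genes lie below 0 and pass the test. The biosynthesis enzymes that pass the test lie on both sides of 0 in the nanotube panels and only below 0 in the water panel.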

How the data were processed

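RNA was sequenced from 20 leaf samples as poly-A libraries with paired reads of 150 bases. Per the study's methods the authors trimmed the reads with Trimmomatic, aligned them to TAIR10 with HISAT2 and deposited whole-number counts per gene from featureCounts 2.0.1; the submitters' processing notes also name edgeR 3.30.3. Strand and multiple-match settings are not given in the sources used here. The columns of the authors' own comparisons (fold changes and p-values) were not used, and from that file only gene length was read for 139 genes outside the TAIR10.1 annotation.

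Counts were scaled by TMM (factors 0.948 to 1.05) and fitted across all genes with edgeR 4.0.16 quasi-likelihood (R 4.3.3) with a term for each group and 16 residual degrees of freedom, as in the study. Genes averaging at least 1 RPKM were tested in 6 contrasts and 1 joint test, with Benjamini-Hochberg adjustment over 16288 genes. CPM and RPKM were computed from the scaled counts. The samples are the replicates, and intervals cover 95%. Likeness used log2 CPM with a prior count of 2. The fit was first tested on simulated data.

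The members and lists were chosen with earlier results of these data known. Named genes were the 10 members, the called gene of each list with the largest rise and fall in PEI-SWNTs against non-infiltrated leaves, PEI-SWNTs against SWNTs and water against non-infiltrated leaves, and the 5 genes nearest to LOX2. Alternatives were RLE scaling, DESeq2 1.42.0, other filters, a replicate block, fits on the 10 samples compared, merged samples, summed tandem genes, a 2-fold minimum and each sample left out. SWNTs replicates 3 and 4 were the most alike (mean chi-square per gene 3.81, against 7.12 to 68.3 in the other 39 pairs), still above sampling noise, and were kept as 2 samples.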

Additional observations from a re-analysis of the deposited data

Results flagged for a closer look

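With 5 samples a group, the gap of the highest or lowest sample to its neighbour was divided by the group's range. It was held against Dixon's critical value of 0.71, which chance passes in about 1 of 20 groups of normally distributed values. Of 40 groups 5 passed, all through non-infiltrated replicate 2 or water replicate 4. The 40 groups are 10 genes measured in the same 20 samples on the linear CPM scale. They are not independent, so the count that passed cannot be held against that rate. Non-infiltrated replicate 2 was far above its group for AOC2, at 271 CPM with the next sample at 97.9 CPM (ratio 0.898), for AOS, at 872 and 456 CPM (ratio 0.817), and for OPR3, at 199.0 and 81.2 CPM (ratio 0.777). Water replicate 4 was far above its group for LOX3, at 65.8 CPM with the next at 28.4 CPM (ratio 0.803), and for LOX4, at 75.8 and 26.4 CPM (ratio 0.764).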

How the results depend on the processing

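The counts of members called were the same under RLE scaling and the filterByExpr filter in all 6 comparisons. Testing every gene with at least 1 count lost JAR1 in SWNTs against non-infiltrated leaves, LOX3 in PEI-SWNTs against water and LOX4 in SWNTs against water, and fitting only the 10 samples compared lost the first 2 of these and gained AOC2 in PEI-SWNTs against SWNTs and AOC3 in SWNTs against water. Replicate numbers did not pair the samples (correlation of same-numbered deviations -0.36 to 0.29, over 0.1 in 9 of 30 pairs, and 1 of 20 samples matched its own number best), and with a replicate block 2 members instead of 4 were called in SWNTs against water. The block also lost LOX3 and gained AOS in PEI-SWNTs against water, and gained AOC3 in SWNTs against non-infiltrated leaves. With SWNTs replicates 3 and 4 merged, 3 members were called in SWNTs against non-infiltrated leaves (5 otherwise) and 2 in SWNTs against water. Merging also lost LOX3 in PEI-SWNTs against water and gained AOC2 in PEI-SWNTs against SWNTs. With AOC1, AOC2 and AOC3 summed, 2 were called in PEI-SWNTs against water. With a 2-fold minimum, 3 were called in SWNTs and 1 in water against non-infiltrated leaves, 2 in PEI-SWNTs against water and 1 in PEI-SWNTs against SWNTs. DESeq2 turned no direction and called, in addition, LOX4 in PEI-SWNTs against water, AOC1 in water against non-infiltrated leaves and AOC3 in SWNTs against both controls.

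With 1 sample left out, the number called ranged between 6 and 9 in PEI-SWNTs, 3 and 6 in SWNTs and 2 and 3 in water against non-infiltrated leaves, 2 and 6 in PEI-SWNTs against water, 2 and 5 in SWNTs against water, 3 and 5 in PEI-SWNTs against SWNTs, and 9 and 10 in the joint test. Differences that had not passed changed sign within these ranges of log2 values: in SWNTs against non-infiltrated leaves AOC1 -0.35 to 0.22, AOC2 -0.58 to 0.08 and AOS -0.32 to 0.07; in water against non-infiltrated leaves LOX3 -0.87 to 0.08, LOX4 -0.50 to 0.80, AOC3 -0.77 to 0.18 and JAR1 -0.01 to 0.08; in PEI-SWNTs OPR3 -0.65 to 0.28 against non-infiltrated leaves, LOX2 -0.09 to 0.42 against water and AOC3 -0.06 to 0.56 against SWNTs. Without both non-infiltrated replicate 2 and PEI-SWNTs replicate 5, chosen after seeing the data, 5 members were called in PEI-SWNTs against SWNTs, and the sign turned for AOS (0.07), AOC1 (0.22) and AOC2 (0.08) in SWNTs and LOX3 (0.09) and AOC3 (0.18) in water against non-infiltrated leaves, LOX2 in PEI-SWNTs against water (-0.05) and AOC3 in PEI-SWNTs against SWNTs (-0.05). Apart from the constructions named, the cause was not tested. Every member had at least 34 counts in every library.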

Other observations

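MYC2 (AT1G32640), the main transcription factor of jasmonate responses, and JOX1 (AT3G11180), a jasmonic acid hydroxylase, were listed at 0 in all 20 samples. In the TAIR10.1 annotation 98.5% of the MYC2 exon bases also belong to another gene, AT1G32630. None of the JOX1 exon bases do. How reads that fall in 2 genes were counted was not tested. The antifungal genes PDF1.2a and PDF1.2b, markers of the jasmonate and ethylene branch, averaged 0.163 and 0.131 CPM in PEI-SWNTs and 0.329 and 0.279 CPM in non-infiltrated leaves and were too low to be tested, as were DAD1, OPR2, JAZ4, THI2.1 and ORA59.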
